A study of Mus musculus with 11 samples.

Results

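The response that pioglitazone, rosiglitazone and troglitazone have in common was read from 8 arrays of drug-treated 3T3-L1 cells against 3 arrays of vehicle-treated cells. The arrays were chosen by the treatment in their titles, and they are 11 of the 11 arrays of the series. 3T3-L1 is a clonal mouse embryo fibroblast line that turns into fat cells under an adipogenic cocktail, and the labels do not say whether these cultures had been differentiated. Vehicle was 0.1% DMSO (3 arrays), and the drugs were 20 µM pioglitazone (2 arrays), 1 µM rosiglitazone (3 arrays) and 20 µM troglitazone (3 arrays). Exposure was 24 h in each group, and DMSO is stated for the vehicle group only. The titles split the arrays into 2 sets: set 1 holds replicates 1 and 2 of the 4 groups, and set 2 is made of replicate 4 of 3 groups (vehicle, rosiglitazone, troglitazone). Pioglitazone has no array in set 2. Rosiglitazone was given at a lower dose than the other drugs, so its values stand beside theirs with no comparison, and only pioglitazone and troglitazone were set against each other.

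Thiazolidinediones bind PPARγ, a nuclear receptor that pairs with a retinoid X receptor on DNA and switches on genes of fatty acid uptake, triglyceride storage and fatty acid oxidation in adipocytes. The receptor is the main driver of fat cell formation, and these drugs were developed as insulin sensitisers. Pioglitazone and rosiglitazone carry a pyridine ring at the end away from the thiazolidinedione head, and troglitazone carries the chroman ring of vitamin E there.

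The cells had the transcripts of adipocytes. All 12 adipocyte markers measured were above the signal floor on at least 1 vehicle array, and adiponectin (Adipoq) read 46880 ± 4760 (SD, n = 3) in vehicle. Fibroblast and preadipocyte markers met the same bar, 9 of 9 measured. So did every tested marker of endothelium (6), epithelium (6), smooth muscle (4) and osteoblast or chondrocyte (5), so this bar alone does not identify a cell type. The summed vehicle signal was 205700 to 251000 for the adipocyte list and 7597 to 9720 for the fibroblast list. It was 2132 to 3620 for the macrophage list, 2564 to 2710 for the skeletal muscle list, and at most 1766 in the endothelium, epithelium, smooth muscle and osteoblast lists. Depth on an array is its signal over background: the median signal lay between 162.8 and 243.5 over the 11 arrays, and a floor of 73.7 was set under dim values. Rosiglitazone replicate 2 had the lowest median correlation with the other arrays (0.833, against 0.874 to 0.896). The beta-actin controls, whose 3' probes read brighter than 5' probes as RNA degrades, gave a 3'/5' ratio of 4.86 on pioglitazone replicate 2, where the other arrays of set 1 read 1.79 to 2.27 and those of set 2 read 3.74 to 3.9. Counts that open a comparison are therefore also given without rosiglitazone 2 and pioglitazone 2, called below the 2 arrays that stand apart. Pioglitazone 2 stood apart by its actin ratio only, as its median correlation of 0.896 was the highest of the 11 arrays. In lysates of whole cultures, fewer cells of a type and less RNA per cell cannot be told apart.

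The promoter windows of genes called for the mean of the 3 drugs, not all of them common to the 3, are shown first. Sites outside these windows were not searched. The windows run from 250 bases before to 50 bases after each gene's start (RefSeq, GRCm38.p6), and 108 of the 127 genes that rose and 60 of the 78 that fell had one. Each sequence is printed 5′ to 3′ on the gene's own strand, with the match in capitals. The DR1 element, the kind of repeat that PPARγ and its partner bind, is the word AGGTCA repeated after a gap of 1 base, and it was searched on both strands with up to 2 mismatches. Plin2, which rose, had its match on the opposite strand, 212 bases before the start, and Itih4, which fell, had one 102 bases before it.
Plin2 (chr4:86670242-86670309, minus strand): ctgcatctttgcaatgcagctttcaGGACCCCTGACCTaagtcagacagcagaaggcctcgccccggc
Itih4 (chr14:30886331-30886403, plus strand): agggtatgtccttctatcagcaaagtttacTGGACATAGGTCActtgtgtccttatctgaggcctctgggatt
Counted by gene over all its windows, such a match was in 5 of 108 genes that rose (4.63%) and 3 of 60 that fell (5.0%). It was in 3.86% of the 6351 genes tested that had a window, and in 3.86% of all 32851 windows counted singly. The C/EBP palindrome, read by the factors that act beside PPARγ in fat cells, was searched as TTGCGCAA with up to 1 mismatch, on both strands. Pnp, which fell, held it with no mismatch, and Acaa1b and Cidec, which rose, and Cp, which fell, held it with 1.
Pnp (chr14:50944141-50944208, plus strand): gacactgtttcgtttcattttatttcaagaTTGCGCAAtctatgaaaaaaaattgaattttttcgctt
Acaa1b (chr9:119157228-119157295, minus strand): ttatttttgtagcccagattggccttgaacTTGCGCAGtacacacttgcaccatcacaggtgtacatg
Cidec (chr6:113434925-113434992, minus strand): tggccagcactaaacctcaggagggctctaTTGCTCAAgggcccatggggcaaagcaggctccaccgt
Cp (chr3:19956987-19957053, plus strand): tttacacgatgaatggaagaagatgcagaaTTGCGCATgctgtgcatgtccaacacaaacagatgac
These letters were in 14 of 108 genes that rose (13.0%), 6 of 60 that fell (10%) and 8.96% of genes tested. Counted singly, 5.92% of all windows held them, and a gene with several windows has more chances of a match. The sterol regulatory element, with up to 1 mismatch, was in 3.7% and 3.33% of genes that rose and fell. The shares were 2.49% for genes tested and 1.95% for all windows counted singly. The word TCAAGGTCA, read by single nuclear receptors of the ERR kind, was searched with no mismatch. It was in 1 of 108 genes that rose and 0 of 60 that fell, against 0.315% of genes tested and 0.423% of all windows. TCAAGGTCA shares the letters AGGTCA with the DR1 repeat. A match is a description of letters, and no binding was measured.

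Of 11739 probe sets tested over the 11 arrays, 150 rose (1.28%) and 101 fell (0.86%) in the mean of the 3 drugs against vehicle. "Rose" and "fell" mean an adjusted p under 0.05 in limma, fitted with a term for each group and for the set, each drug with the same weight. By gene, with the brightest probe set of each, 127 of 7962 rose (1.6%) and 78 fell (0.98%), and the median gene changed by -0.04 on the log2 scale. Every count of list members below stands against these shares. Each of the 8 drug arrays lay above every vehicle array of its set for 327 probe sets (2.79%) and below for 396 (3.37%). Among the called probe sets this held for 136 of the 150 that rose and 94 of the 101 that fell. The calls came from the same arrays, so this is no separate support for them. The genes with the largest rises and falls were also chosen by it, so for them it restates the choice. The split of 150 higher and 101 lower moved to 183 and 72 when each array was centred on its median, which moved the median of all probe sets from -0.028 to 0.073, and to 108 and 107 after quantile normalisation. Without a trend of the variance with signal 30 probe sets were called, and without the set term 84. Without pioglitazone 2 and rosiglitazone 2 the fit called 184 probe sets, 166 of them among the 251. Leaving out 1 array at a time gave 115 to 236, and the low counts came without vehicle 2 (115), vehicle 1 (122), vehicle 4 (127), troglitazone 4 (159) or rosiglitazone 4 (163). The labels do not say whether the arrays of a group came from separate cultures, so the p-values measure the spread between these samples, which may be technical. Log2 changes below are for the mean of the 3 drugs with their standard error, and folds come from the same fit. Signals are listed in the order replicates 1, 2 and 4 (1 and 2 for pioglitazone).

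**Figure D1:**
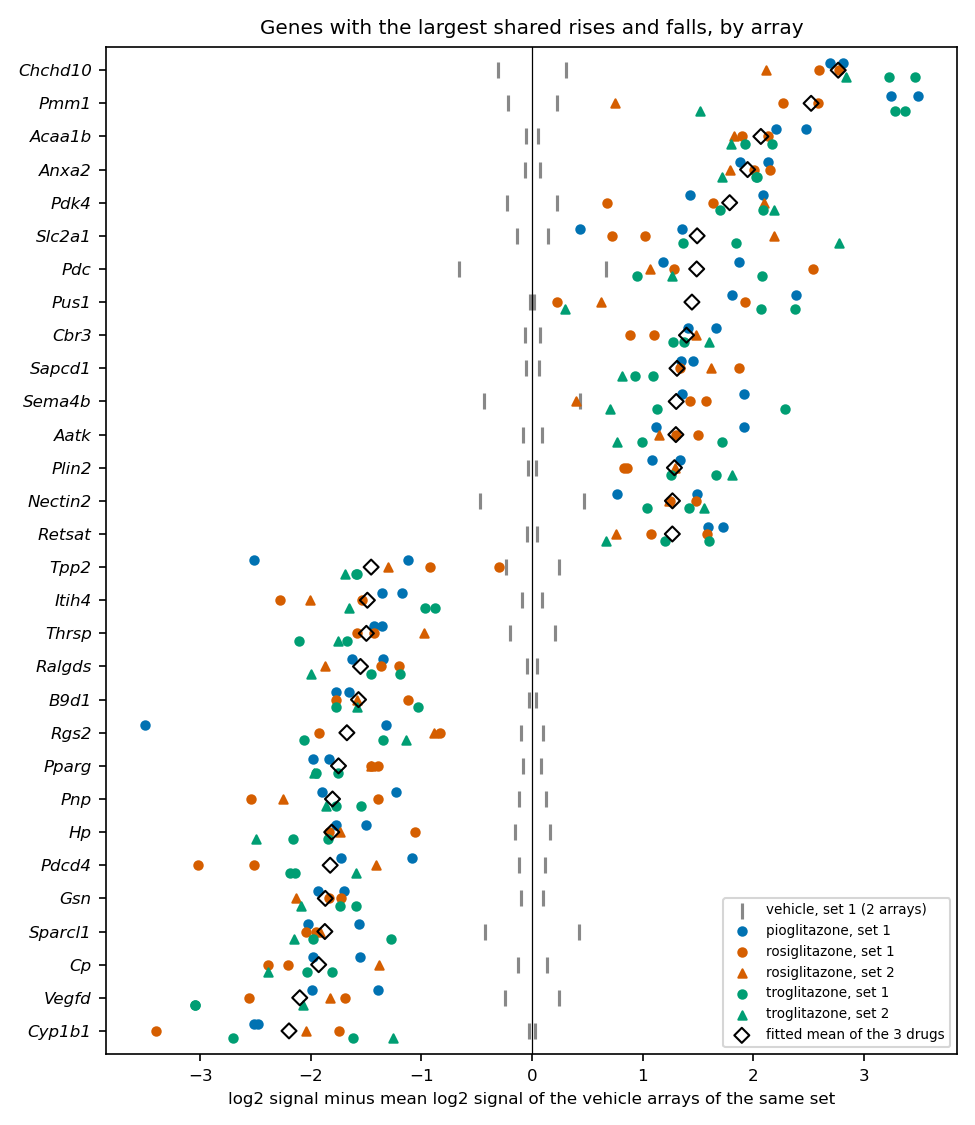
The 15 genes with the largest rises and the 15 with the largest falls that passed the test and lay on 1 side on all 8 drug arrays; the x axis is the log2 signal minus the mean log2 vehicle signal of the same set, with points for arrays, grey bars for the 2 vehicle arrays of set 1 and a diamond for the fitted mean of the 3 drugs. The set 2 vehicle array is 0 by construction. The fitted means of Chchd10, Acaa1b and Anxa2 are 2.77, 2.07 and 1.95, and the points of Pus1, Rgs2 and Cyp1b1 spread widely.

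Pparg, the receptor gene itself, fell 3.36-fold. Its signal was 1931, 1729 and 2886 on the vehicle arrays, 462 and 511 with pioglitazone, 698, 665 and 1054 with rosiglitazone and 543, 473 and 738 with troglitazone. Every drug array was below every vehicle array, and the highest drug value, rosiglitazone 4, came from the set whose vehicle array was also the highest. The log2 change was -1.75 ± 0.18 (limma, adjusted p = 3.99e-05), and the single drugs gave -1.93, -1.43 and -1.89 for pioglitazone, rosiglitazone and troglitazone. These 3 values share the same vehicle arrays. The partner Rxra read 0.92 (adjusted p = 0.131) on its brighter probe set and -0.07 on the other, and neither passed. The relatives Ppara and Ppard, receptors that handle fatty acid breakdown in other tissues, read -0.81 ± 0.53 and -0.40 ± 0.23 and did not pass. Cebpa and Cebpb, the factors that work with PPARγ in fat cell formation, read -0.11 (adjusted p = 0.813) and 0.40 (adjusted p = 0.161). Of 28 adipogenic transcription factors, 3 fell and 1 rose, where 0.98% of all genes fell and 1.6% rose. Those that fell were Pparg, Srebf1, which drives lipogenic genes, and Nrip1, a corepressor (-1.07; a call lost without any 1 vehicle array, rosiglitazone 4 or troglitazone 4). Ddit3, a stress factor that can block C/EBP proteins, was the member that rose.

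Esrra, the estrogen-related receptor that drives genes of oxidative metabolism, rose 1.82-fold. It read 1930.3, 2119.8 and 1932 on the vehicle arrays, 4186 and 3736 with pioglitazone, 3652, 3533 and 3331 with rosiglitazone and 3489, 3589 and 3378 with troglitazone. The vehicle arrays lay close together, and all 8 drug arrays were above them. The change of 0.86 ± 0.11 (limma, adjusted p = 0.000445) was close to the value of each single drug (0.96, 0.81 and 0.81). Its dimmer probe set read 0.31 ± 0.22 and did not pass.

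The droplet proteins Plin2 and Cidec and the secreted protein Angptl4 rose. Plin2, which coats droplets, rose 2.44-fold. Its signals were 9675, 10196 and 6178 on the vehicle arrays, 25005 and 20995 with pioglitazone, 17606, 18033 and 15083 with rosiglitazone and 23756, 31400.1 and 21541 with troglitazone. Every drug array was above every vehicle array (1.29 ± 0.12, limma, adjusted p = 1.8e-05). Cidec, which fuses droplets and enlarges them, read 9478, 9483 and 13351 on the vehicle arrays, 27673 and 25620.5 with pioglitazone, 24697, 20068 and 27001 with rosiglitazone and 22892, 20308 and 23649 with troglitazone. The lowest drug array stood above the highest vehicle array, and the change was 1.22 ± 0.11 (adjusted p = 1.23e-05). Angptl4, which blocks lipoprotein lipase outside the cell, read 2096, 2550.2 and 2994 on the vehicle arrays, 6233 and 5047 with pioglitazone, 5144, 5789.9 and 6005 with rosiglitazone and 5431, 5037 and 6030.5 with troglitazone. Its groups did not overlap, and the single drugs read 1.23, 1.16 and 1.12 (1.17 ± 0.12, limma, adjusted p = 3.96e-05). Angptl4 has 3 further probe sets: 1 also rose (1.03), and the other two read 0.66 ± 0.51 and -1.10 ± 0.63 and did not pass.

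Cidea, a droplet protein abundant in brown fat, read 1318, 1814 and 3484 on the vehicle arrays, 2327 and 2792 with pioglitazone, 3336, 3194 and 6551 with rosiglitazone and 3512, 4000.4 and 6208 with troglitazone. The set 2 arrays were brighter than those of set 1, so the groups overlap when the sets are pooled, but within each set every drug array was above vehicle. The fitted change was 0.94 ± 0.14 (limma, adjusted p = 0.00111), with 0.65, 1.02 and 1.13 for the 3 drugs. Among 11 brown fat and thermogenic genes, Cidea and Esrra rose and none fell, where 1.6% of all genes rose. Ucp1, the uncoupling protein of brown fat, had a mean vehicle signal of 85.37 ± 89.52 (SD, n = 3), near the floor, and its 0.43 ± 0.46 did not pass. The summed signal of the 5 brown adipocyte markers tested was 9430 to 9520 in vehicle and 10820 to 14880 with drug, and its part in the result was not tested.

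Pck1, the enzyme of glyceroneogenesis that makes glycerol phosphate for triglyceride, was called for the mean of the 3 drugs but was not common to them. It read 1718, 1016 and 1988 on the vehicle arrays, 6331 and 6603 with pioglitazone, 3746, 4247 and 3013 with rosiglitazone and 1696, 1914 and 1356 with troglitazone. Both pioglitazone arrays and the rosiglitazone arrays were above the vehicle arrays of their set, while the troglitazone arrays went both ways. Troglitazone 1 lay between the vehicle arrays of set 1, troglitazone 2 above them and troglitazone 4 below vehicle 4. The mean change was 1.15 ± 0.19 (limma, adjusted p = 0.0034), made of 2.07, 1.26 and 0.11. Without pioglitazone 2 and rosiglitazone 2 the adjusted p was 0.0897.

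Of 21 lipid uptake and droplet genes counted as PPARγ targets, 8 rose and 0 fell, where 1.6% of all genes rose. Their median log2 change was 0.40, against -0.04 for all genes, and 0.48, 0.50 and 0.26 with pioglitazone, rosiglitazone and troglitazone. Without the 2 arrays that stand apart 7 rose. Leaving out single arrays gave 5 or more, with 5 without vehicle 1. Members that did not pass include Fabp4, the fatty acid carrier often taken as the readout of PPARγ, at 0.40 (95% interval 0.13 to 0.67, adjusted p = 0.157). Fabp4 read 2209.5, 2819 and 2037 on the vehicle arrays, 2981 and 3239 with pioglitazone, 3893, 3505 and 3148 with rosiglitazone and 3470.5, 2862 and 2437 with troglitazone. The drug arrays exceeded the vehicle arrays within each set, but vehicle 2 was above troglitazone 4. Cd36, a fatty acid transporter, read 0.12 ± 0.27, and Lpl, the lipase that frees fatty acids from lipoproteins, -0.31 ± 0.15. Adipoq read -0.21 ± 0.11, Slc2a4, the insulin-dependent glucose transporter, -0.01 ± 0.16, and Aqp7, a glycerol channel, 0.98 ± 0.53, none of which passed. Leptin (Lep) and the hormone-sensitive lipase Lipe read -0.22 ± 0.35 and 0.23 ± 0.09, also without a call. Abhd5, the activator of the lipase ATGL, rose by 0.96 ± 0.12 (adjusted p = 0.000302).

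**Figure D2:**
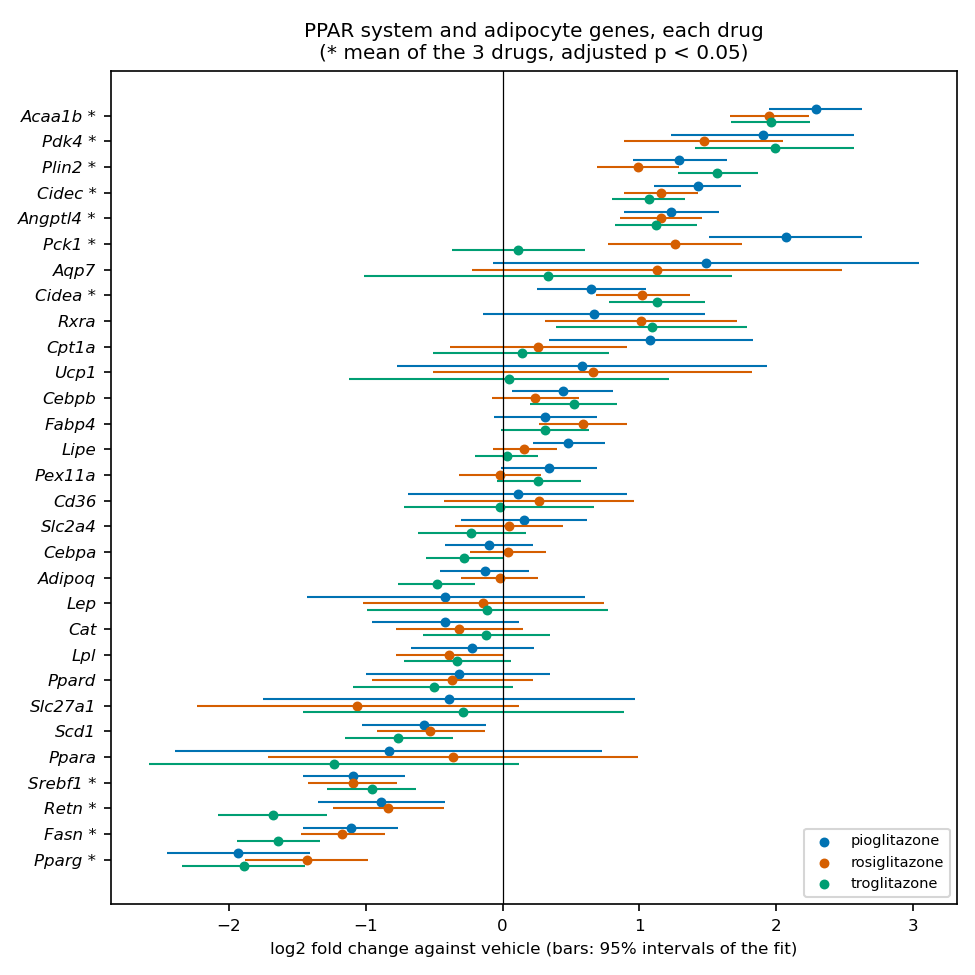
The 30 tested genes of the PPAR system and of adipocytes, ordered by the mean of the 3 drugs; points are the log2 change of each drug against vehicle and bars are 95% intervals of the fit, with the 3 drugs sharing the vehicle arrays. Of these genes 7 rose and 4 fell, and Pck1 is the member whose troglitazone interval sits apart from that of pioglitazone.

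Of the fatty acid oxidation genes that were called, all rose. Acaa1b, a peroxisomal thiolase that releases acetyl-CoA, rose 4.19-fold, one of the largest changes. It read 1519.6, 1631 and 3087 on the vehicle arrays, 8742 and 7243 with pioglitazone, 6905, 5861 and 10944 with rosiglitazone and 7057, 5959 and 10710.5 with troglitazone. The set 2 vehicle array was brighter than those of set 1 and still below every drug array. The change was 2.07 ± 0.12 (limma, adjusted p = 9.56e-08), and its second probe set read 1.00 (adjusted p = 0.0105). Its close copy Acaa1a rose by 0.75 ± 0.12 (no longer called without vehicle 2, adjusted p = 0.0531), and probes may not keep the copies apart. Among 20 genes of peroxisomal lipid metabolism 6 rose and 0 fell, where 1.6% of all genes rose. The list had a median of 0.31 and single-drug medians of 0.18, 0.42 and 0.05. The median was 0.08 without vehicle 4 and 0.11 without troglitazone 4, and after quantile normalisation 4 rose and 1 fell. The count that rose was 5 without the 2 arrays that stand apart, and 2 without vehicle 2.

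Pdk4, the kinase that shuts the pyruvate dehydrogenase complex and so spares glucose, rose 3.45-fold. Its signals were 674, 926 and 831 on the vehicle arrays, 2129 and 3363 with pioglitazone, 2454, 1263 and 3554 with rosiglitazone and 2571, 3365 and 3769 with troglitazone. Rosiglitazone 2 was the lowest drug array and still exceeded every vehicle array. The log2 change was 1.79 ± 0.23 (limma, adjusted p = 0.000389), with 1.9, 1.47 and 1.99 for the 3 drugs.

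Fatty acid oxidation in mitochondria had 18 genes tested, with a median of 0.53 and single-drug medians of 0.81, 0.51 and 0.33. Of these genes 8 rose and 0 fell, where 1.6% of all genes rose. This count fell to 4 without the 2 arrays that stand apart and to 2 without vehicle 4, while the median over single left-out arrays stayed between 0.48 and 0.54. After quantile normalisation 4 rose and 1 fell, and after median centring 10 rose and 0 fell. Hadhb, a subunit of the trifunctional protein, read 8232, 8024 and 8307 on the vehicle arrays, 16426 and 12432 with pioglitazone, 17000.5, 16074 and 17930.0 with rosiglitazone and 16317, 15211 and 15629 with troglitazone. The 3 vehicle arrays differed little and every drug array was well above them (0.94 ± 0.1, limma, adjusted p = 0.000101). Acaa2, the mitochondrial thiolase, rose by 0.79 ± 0.1 (adjusted p = 0.000466). Slc25a20, which carries acylcarnitines into mitochondria, rose by 1.03 ± 0.18 (adjusted p = 0.00483, and 0.0613 without vehicle 4). Cpt1a, the gate of mitochondrial fatty acid entry, read 0.49 ± 0.25 and did not pass. Decr1, an auxiliary enzyme for unsaturated fatty acids, was called at 0.74 (adjusted p = 0.0491) but held in 1 of the 11 fits that left out 1 array.

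Some mitochondrial genes beyond fat oxidation also rose, though most did not pass. Chchd10, a protein of the intermembrane space, had the largest rise of all named genes, 6.80-fold. Its signal was 560.1, 364 and 868 on the vehicle arrays, 2914 and 3173 with pioglitazone, 3082, 2728 and 3756 with rosiglitazone and 4212, 4957 and 6205 with troglitazone. All 8 drug arrays were far above the vehicle range. The change was 2.77 ± 0.16 (limma, adjusted p = 1.11e-07). Cox6a2, a subunit of cytochrome c oxidase typical of muscle and brown fat, read 703, 812 and 762 on the vehicle arrays, 1849 and 1404 with pioglitazone, 1494, 1272 and 1939.9 with rosiglitazone and 1950.1, 2114 and 1998 with troglitazone. Its groups did not overlap (1.19 ± 0.16, limma, adjusted p = 0.000738). Ndufa5, a complex I subunit, read 5693, 4798 and 10205 on the vehicle arrays, 16229 and 13894 with pioglitazone, 11853, 9633 and 19841 with rosiglitazone and 9986, 8350.5 and 15793 with troglitazone. Set 2 arrays were brighter, so the groups overlap only across sets, and the set-adjusted change was 1.08 ± 0.11 (adjusted p = 5.26e-05) with 1.5, 1.01 and 0.75 for the 3 drugs.

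By complex, 5 of 29 complex I genes rose (median 0.26), 8 of 27 genes of complexes II to IV and cytochrome c rose (median 0.37), and 1 of 19 genes of the ATP synthase and nucleotide exchange rose (median 0.25). None of them fell, where 1.6% of all genes rose and 0.98% fell. Atp5o, an ATP synthase stalk subunit, was the riser of the last list (0.94 ± 0.11, limma, adjusted p = 0.000113). Uqcrb and Uqcrh, subunits of complex III, rose by 0.8 ± 0.11 and 0.69 ± 0.1. In the citric acid cycle and pyruvate entry 6 of 27 rose (median 0.31), among them Ogdh at 0.79 ± 0.12, Suclg1 at 0.63 ± 0.12 (lost without any 1 vehicle array) and Pdk4. Of 34 genes of mitochondrial import and ribosomes 4 rose, with a median of 0.28. Leaving out the 2 arrays that stand apart gave 6, 6, 1, 3 and 2 calls in these 5 lists. Quantile normalisation gave 4, 5, 1, 3 and 1, and median centring 5, 11, 3, 7 and 6. With single arrays left out the lowest counts were 3 for complex I (without vehicle 2), 4 for complexes II to IV (without any 1 vehicle array), 2 for the citric acid cycle (without any 1 vehicle array) and 1 for import (without vehicle 4, rosiglitazone 4 or troglitazone 4).

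Of 19 glycolytic genes 8 rose and 0 fell, where 1.6% of all genes rose, and their median was 0.49. The single-drug medians were 0.28, 0.52 and 0.40 for pioglitazone, rosiglitazone and troglitazone. Each of the 8 read lower with pioglitazone than with troglitazone, though none of these differences passed. Pkm, Pgam1 and Pgk1 read 0.17, 0.28 and 0.35 with pioglitazone and 0.77, 0.85 and 0.96 with troglitazone. For Pgam1 and Pgk1 not every drug array was above the vehicle arrays of its set. Tpi1, triose phosphate isomerase, read 11775, 12634 and 9671 on the vehicle arrays, 17779.8 and 19232 with pioglitazone, 17526, 20873 and 17347 with rosiglitazone and 19729, 21904 and 19097 with troglitazone. All drug arrays exceeded all vehicle arrays (0.73 ± 0.1, limma, adjusted p = 0.000731). Slc2a1, the basal glucose transporter GLUT1, read 549, 452 and 234 on the vehicle arrays, 674 and 1275 with pioglitazone, 820.0, 1013 and 1063 with rosiglitazone and 1285, 1784 and 1604 with troglitazone. The vehicle array of set 2 was the dimmest, and every drug array was above every vehicle array. Its change was 1.49 ± 0.27 (adjusted p = 0.00592), with 1.17, 1.31 and 1.99 for the 3 drugs. The call was lost without vehicle 4 (adjusted p = 0.0754) and without the 2 arrays that stand apart (0.0862). Hk2, the hexokinase that traps glucose, rose by 0.76 ± 0.13, a call lost without vehicle 4 or vehicle 2 (highest adjusted p = 0.0861). The glycolytic count fell to 4 without the 2 arrays that stand apart and to 1 without vehicle 4, with medians of 0.40 to 0.53 over single left-out arrays. After quantile normalisation 3 rose, and after median centring 8. Of 24 insulin signalling and glucose transport genes, Slc2a1 was the 1 that rose.

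**Figure D3:**
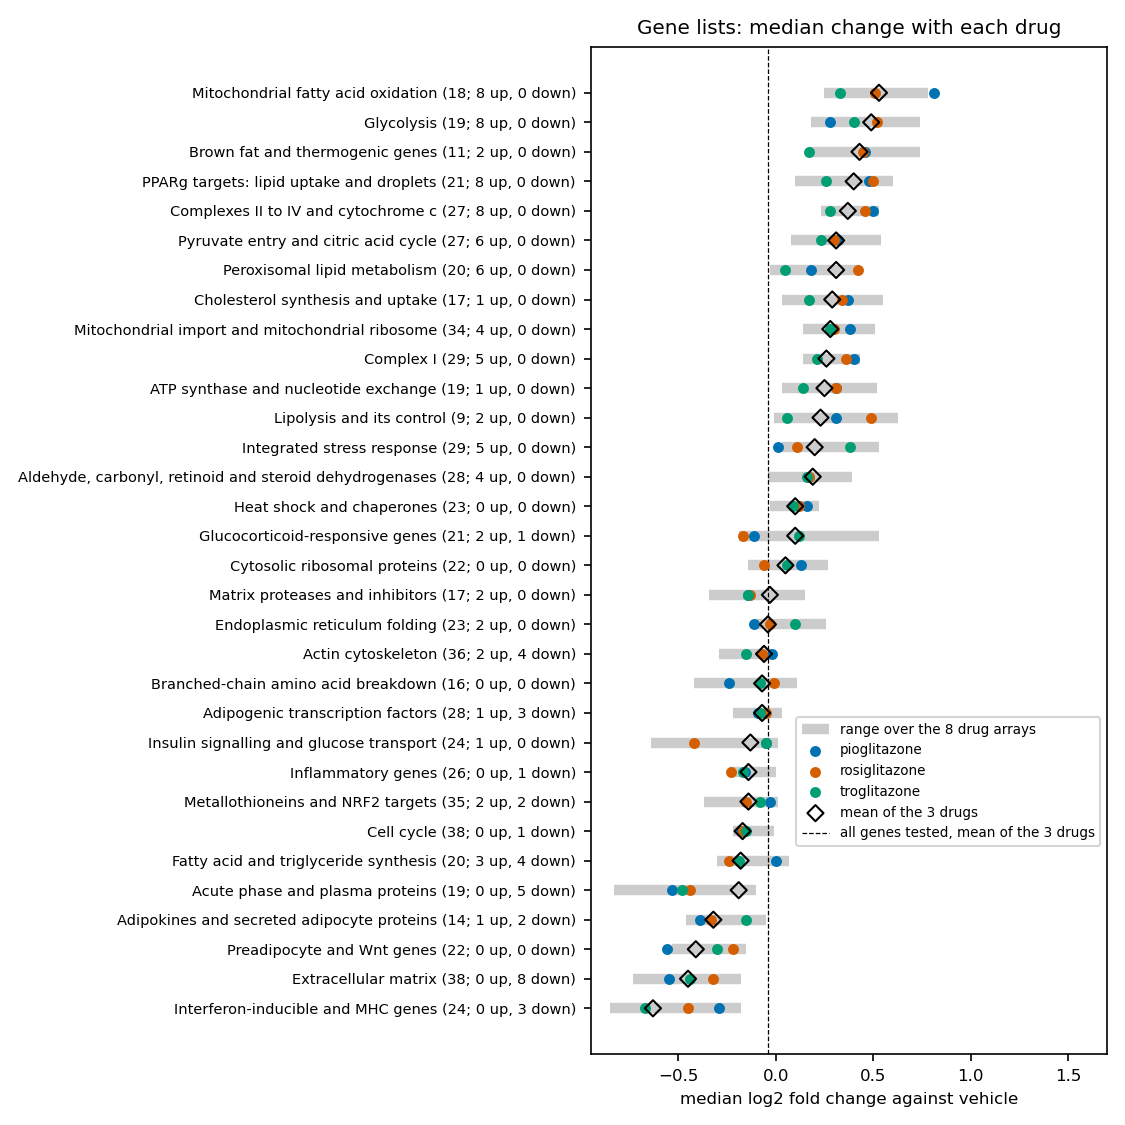
Median log2 change against vehicle of the gene lists, with the number of tested genes and of calls in brackets; coloured points are the medians with each drug, the diamond is the median of the 3-drug mean, the grey bar spans the 8 drug arrays, and the dashed line is the median of all genes tested (-0.04). Lists of oxidation, glycolysis and lipid uptake sit to the right, and matrix and MHC lists to the left. The drugs share the vehicle arrays, so their points are not independent.

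The lipogenic genes Fasn, Srebf1 and Thrsp fell. Fasn, fatty acid synthase, fell 2.47-fold. Its signals were 13607, 15582 and 18128 on the vehicle arrays, 5601 and 7575 with pioglitazone, 6024, 6442 and 8718 with rosiglitazone and 4801, 3980.4 and 6692 with troglitazone. No drug array reached the vehicle range. The log2 change was -1.3 ± 0.12 (limma, adjusted p = 1.8e-05), with -1.11, -1.17 and -1.64 for the 3 drugs. Srebf1, the factor that drives Fasn and related genes, read 5970.4, 5896 and 6933 on the vehicle arrays, 3485 and 2379.6 with pioglitazone, 2842, 2922 and 3023 with rosiglitazone and 3123, 3363 and 3200.5 with troglitazone. The groups did not overlap (-1.04 ± 0.13, limma, adjusted p = 0.000279). Thrsp, a lipogenic regulator that follows thyroid hormone and carbohydrate, fell 2.83-fold (-1.5 ± 0.14, adjusted p = 2.14e-05). Scd1, the desaturase that makes oleate, read -0.62 (adjusted p = 0.0531) on its brightest probe set and -0.53 (adjusted p = 0.0297) on another, while the dimmest read 0.02 ± 0.30.

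Not all of the synthesis list moved that way. Of its 20 genes 4 fell (Fasn, Thrsp, Srebf1 and the elongase Elovl5, whose call was lost without vehicle 1 or vehicle 2) and 3 rose, with a median of -0.18. Hsd17b12, a reductase of fatty acid elongation, was the largest riser at 1.22 ± 0.18 (limma, adjusted p = 0.00103), with 1.09, 1.44 and 1.12 for the 3 drugs. The counts were the same without the 2 arrays that stand apart, and 1 rose without vehicle 1. Of 17 cholesterol genes 1 rose, Lss, which closes the sterol ring (0.82 ± 0.16, a call lost without vehicle 4 or vehicle 1).

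Of 14 genes listed as adipokines and secreted adipocyte proteins 1 rose (Angptl4) and 2 fell (Retn and Agt). Among all genes 1.6% rose and 0.98% fell. Of 17 matrix proteases and inhibitors 2 rose and 0 fell. These were Mmp11 (0.97 ± 0.16) and Serpinf1 (1.20 ± 0.23, a call lost without vehicle 4 or vehicle 2). Haptoglobin (Hp), a haemoglobin-binding acute phase protein, fell 3.51-fold. It read 5182, 6462 and 6385 on the vehicle arrays, 2045 and 1693 with pioglitazone, 2775, 1622 and 1919 with rosiglitazone and 1612, 1297 and 1134 with troglitazone. Drug arrays lay far below vehicle (-1.81 ± 0.17, limma, adjusted p = 2.45e-05). Ceruloplasmin (Cp), a copper-carrying ferroxidase, read 3086, 2569.6 and 2869 on the vehicle arrays, 956 and 715 with pioglitazone, 609.5, 538 and 1100.3 with rosiglitazone and 803, 685 and 549.5 with troglitazone. Its groups did not overlap (-1.93 ± 0.22, adjusted p = 0.00016). Resistin (Retn), an adipocyte hormone, read 6670.0, 7908 and 7587 on the vehicle arrays, 2819 and 4593 with pioglitazone, 3540.4, 3466 and 5744 with rosiglitazone and 1868, 2194 and 2983 with troglitazone. The vehicle arrays were higher than each drug array (-1.13 ± 0.16, limma, adjusted p = 0.000772).

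Of 19 acute phase and plasma protein genes 5 fell and 0 rose, where 0.98% of all genes fell. Besides Hp and Cp these were Itih4, an inter-alpha-trypsin inhibitor chain (-1.49 ± 0.18, adjusted p = 0.000301), Orm1, a drug-binding plasma glycoprotein (-1.45 ± 0.23, with adjusted p = 0.054 without vehicle 2), and Agt, the precursor of angiotensin (-0.74 ± 0.11, adjusted p = 0.00151). The list median was -0.19, and its single-drug medians were -0.53, -0.44 and -0.48. The median was -0.59 without vehicle 2, -0.46 without pioglitazone 1, -0.41 without troglitazone 4 and -0.36 without vehicle 1, and -0.12 without rosiglitazone 4 or troglitazone 1. All 5 were called without the 2 arrays that stand apart. Of 26 inflammatory genes 1 fell, Cd14, the lipopolysaccharide co-receptor (-1.07 ± 0.26), and that call held in 1 of the 11 fits without 1 array.

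Actin-binding and calcium-binding proteins went both ways. Gelsolin (Gsn), which severs actin filaments, fell 3.65-fold. It read 3297, 2867 and 4319 on the vehicle arrays, 804 and 946 with pioglitazone, 861, 929 and 983 with rosiglitazone and 924, 1023 and 1015 with troglitazone. The 8 drug arrays covered a narrow range far under vehicle, with -1.9, -1.9 and -1.8 for the 3 drugs (-1.87 ± 0.16, limma, adjusted p = 7.73e-06). Anxa2, an annexin that links membranes to actin, rose 3.86-fold. Its signals were 3518, 3202 and 6151 on the vehicle arrays, 14681 and 12332 with pioglitazone, 13440.3, 14919.9 and 21268 with rosiglitazone and 13661, 13722 and 20149.8 with troglitazone. Its groups did not overlap and its standard error was among the smallest (1.95 ± 0.1, limma, adjusted p = 9.56e-08). Anxa8, of the same family, went the other way, with 6224, 8896 and 6905 on the vehicle arrays, 2142 and 2139 with pioglitazone, 3668, 2915 and 5126 with rosiglitazone and 1945, 2022 and 2509.8 with troglitazone. All 8 drug arrays lay below vehicle (-1.45 ± 0.15, adjusted p = 5.45e-05). S100a6, a calcium-binding partner of annexins, fell 2.09-fold (-1.07 ± 0.11, adjusted p = 3.96e-05). Of 36 actin genes 2 rose and 4 fell, where 1.6% of all genes rose and 0.98% fell. The actin list had a median of -0.06 (0.04 after median centring), and 1 of its genes rose without any 1 vehicle array or rosiglitazone 4.

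Of 38 extracellular matrix genes 8 fell and 0 rose, where 0.98% of all genes fell. The list had a median of -0.45 and single-drug medians of -0.55, -0.32 and -0.44. Sparcl1, a matrix protein related to osteonectin, fell 3.66-fold. It read 2394, 1326 and 1921 on the vehicle arrays, 438 and 602 with pioglitazone, 431, 460.1 and 508 with rosiglitazone and 450.5, 734 and 434 with troglitazone. Drug arrays lay under every vehicle array, while the vehicle arrays of set 1 differed from each other (-1.87 ± 0.25, limma, adjusted p = 0.000647). Fibronectin (Fn1) read 2912, 2449.5 and 1967 on the vehicle arrays, 1045 and 1383 with pioglitazone, 1357, 1158 and 1258 with rosiglitazone and 1203, 1304 and 1035 with troglitazone. Its groups did not overlap, and the drugs gave -1.08, -0.94 and -1.04 (-1.02 ± 0.16, adjusted p = 0.00204). Col1a1, the main chain of fibrillar collagen, and Dcn, the proteoglycan decorin, were called at -1.08 and -1.14, and held in 8 and 7 of the 11 fits without 1 array. Both were lost without vehicle 4 or vehicle 1, Col1a1 also without pioglitazone 1 and Dcn also without rosiglitazone 4 or troglitazone 4. A second Col1a1 probe set read -0.52 ± 0.26. The matrix count was 5 without the 2 arrays that stand apart and 4 without vehicle 4 or vehicle 1.

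Of 9 fibroblast and preadipocyte markers tested 3 fell (Col1a1, Col3a1 and Dcn, which the matrix list also holds), with a median of -0.91. The count was 2 without the 2 arrays that stand apart and 0 without vehicle 4 or vehicle 1. The median was -0.96 to -0.70 over single left-out arrays, and the summed signal of the list was 7597 to 9720 in vehicle and 4550 to 5964 with drug. Its part in the matrix result was not tested. The adipocyte marker sum was 205700 to 251000 in vehicle and 157300 to 230400 with drug, and the macrophage sum 2132 to 3620 and 1596 to 4292. None of the 22 preadipocyte and Wnt genes passed, although their median was -0.41. Of 24 interferon-inducible and MHC genes 3 fell: B2m, the light chain of MHC class I (-0.79 ± 0.16), Ifitm3, an antiviral membrane protein (-1.03 ± 0.19), and Tapbp, which loads peptides onto class I (-0.72 ± 0.13). Among all genes 0.98% fell. The median of the interferon and MHC list was -0.63, and its count was 0 without vehicle 1. B2m and Tapbp also lost the call without vehicle 2, and Ifitm3 without vehicle 4.

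Some stress genes rose. Ppp1r15a (GADD34), which recruits a phosphatase to eIF2α and restarts translation, read 412, 501 and 761 on the vehicle arrays, 998 and 833 with pioglitazone, 904, 929 and 1040.1 with rosiglitazone and 1746, 2456 and 2628 with troglitazone. All drug arrays were above all vehicle arrays (1.26 ± 0.19, limma, adjusted p = 0.00128). Its single-drug values were 0.9, 0.83 and 2.06. Ddit3 (CHOP) read 2295, 2582 and 3846 on the vehicle arrays, 3231 and 3941 with pioglitazone, 2486, 2633 and 5348 with rosiglitazone and 6869.5, 6685 and 11342 with troglitazone. The rosiglitazone arrays of set 1 overlapped vehicle, and the mean of 0.77 ± 0.12 (adjusted p = 0.00182) was made of 0.61, 0.21 and 1.5. Of 29 genes of the integrated stress response 5 rose and 0 fell (3 without the 2 arrays that stand apart, and 3 without any 1 vehicle or troglitazone array, rosiglitazone 4 or rosiglitazone 1), with medians of 0.01, 0.11 and 0.38 for the 3 drugs. After quantile normalisation 3 rose, and after median centring 5. Among all genes 1.6% rose. Gars, the glycyl-tRNA synthetase, read 0.84, 0.73 and 0.82 with the single drugs (mean 0.8 ± 0.13, adjusted p = 0.00294). None of 23 heat shock genes passed, nor did any of 22 cytosolic ribosomal protein genes or of 16 genes of branched-chain amino acid breakdown. Of 38 cell cycle genes 1 fell, Pdcd4. Of 23 genes of endoplasmic reticulum folding 2 rose, 1 without the 2 arrays that stand apart and 0 without vehicle 4 or vehicle 2. One was Hsp90b1, a chaperone of the reticulum, whose call held in 1 of the 11 fits without 1 array. The other was Ero1a, whose values of 0.07, 0.53 and 1.46 for pioglitazone, rosiglitazone and troglitazone were not common to the 3 drugs.

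Cbr3, a carbonyl reductase that follows NRF2, rose 2.63-fold. It read 1669.6, 1521 and 2077 on the vehicle arrays, 5034 and 4219 with pioglitazone, 2933, 3427 and 5805 with rosiglitazone and 3843, 4134 and 6274 with troglitazone. All drug arrays stood above all vehicle arrays (1.4 ± 0.13, limma, adjusted p = 1.8e-05). Retsat, which saturates retinol and has been tied to PPARγ in fat, rose by 1.27 ± 0.15 (adjusted p = 0.000206) with 1.51, 1.14 and 1.15, and Ephx2, the soluble epoxide hydrolase, by 1.23 ± 0.17 (adjusted p = 0.000715) with 1.28, 1.03 and 1.38. Where 1.6% of all genes rose and 0.98% fell, 2 of 35 metallothionein and NRF2 genes rose and 2 fell. Without the 2 arrays that stand apart 1 rose and 1 fell. The second that fell, the ferritin chain Fth1, held in 2 of the 11 fits without 1 array. Gstm1, a glutathione transferase of a family of near-identical copies, fell 1.72-fold (-0.78 ± 0.11), while Hmox1, haem oxygenase, was called at 0.90 and held in 1 of the 11 fits without 1 array.

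Large changes were also found outside the pathways above. Pmm1, a phosphomannomutase that feeds protein glycosylation, rose 5.74-fold. It read 149, 203 and 749.5 on the vehicle arrays, 1955 and 1646 with pioglitazone, 835, 1040.1 and 1261 with rosiglitazone and 1799.7, 1685 and 2144 with troglitazone. The set 2 vehicle array was much brighter than those of set 1, and the drug arrays of set 2 exceeded it by less than those of set 1 exceeded theirs (2.52 ± 0.27, limma, adjusted p = 8.17e-05). Pdcd4, which inhibits translation initiation and stands in the cell cycle list, read 2149, 1824 and 1920.2 on the vehicle arrays, 599 and 935 with pioglitazone, 348, 244 and 724 with rosiglitazone and 447, 435 and 636 with troglitazone. All drug arrays were lower than vehicle (-1.83 ± 0.26, limma, adjusted p = 0.000882). Ralgds, an exchange factor for Ral, read 4111, 3862 and 4823 on the vehicle arrays, 1567 and 1291 with pioglitazone, 1545, 1732 and 1315 with rosiglitazone and 1457, 1742 and 1211 with troglitazone. The drug arrays lay in 1 narrow band below vehicle on this bright probe set (-1.55 ± 0.15, limma, adjusted p = 3.79e-05), and a second, dimmer one read 0.38 ± 0.38. Pnp, purine nucleoside phosphorylase, fell 3.49-fold (-1.8 ± 0.25, adjusted p = 0.000733).

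Several of the largest changes rested on single arrays. Cyp1b1, a cytochrome of the aryl hydrocarbon receptor pathway, had the largest fall among the named genes (-2.2 ± 0.4, adjusted p = 0.0061), and its call was lost without vehicle 1 or vehicle 2 (highest adjusted p = 0.0928). Vegfd, a lymphatic growth factor, fell at -2.1 ± 0.46 and kept the call in 6 of 11 fits. Its troglitazone signals (64.6, 51.5 and 54.1) were under the floor of 73.7, so the size of its fall depends on the floor. Rgs2, a brake on G protein signals, read -1.67 ± 0.37 and kept the call in 4, and B9d1, a ciliary protein, -1.57 ± 0.33 in 5. B9d1 was also under the floor on pioglitazone 1, rosiglitazone 2 and 4 and troglitazone 1 and 4. Tpp2, a peptidase, kept the call in 7, Aatk, a kinase, in 3, Pdc, phosducin, in 2, Pus1, a pseudouridine synthase, in 2 and Sema4b, a semaphorin, in 1. Apart from Cyp1b1, each of these lost its call whichever 1 of the 3 vehicle arrays was left out. Drug arrays also ended calls on their own. They were pioglitazone 2 and rosiglitazone 4 for Vegfd, and rosiglitazone 1 and 4 and troglitazone 1 and 4 for Rgs2. For B9d1 they were pioglitazone 1, rosiglitazone 4 and troglitazone 4, and for Tpp2 rosiglitazone 4. Aatk, Pdc, Pus1 and Sema4b each lost the call without any 1 of several drug arrays, with arrays of all 3 drugs among them. Of the 91 named genes that were called, 49 kept the call without any 1 array and 69 without the 2 arrays that stand apart.

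Set 2 had its own vehicle, rosiglitazone and troglitazone arrays, so it offers the same measure in arrays that a fit of set 1 did not use. The 8 arrays of set 1 alone called 28 probe sets higher (0.239%) and 28 lower (0.239%). In set 2, all 28 called higher were higher in the mean of rosiglitazone and troglitazone than in vehicle, with a median of 0.99, while 41.7% of all probe sets were. Of the 28 called lower, 26 were lower, with a median of -1.22, against 45.9% of all, and the other two, Strn and a probe set without a gene name, were at the floor on each array of set 2. Fn1 and Retn read -0.79 and -0.87 in set 2, and Chchd10, Acaa1b and Anxa2 read 2.48, 1.81 and 1.75. Pck1 read 0.02 there, made of 0.60 with rosiglitazone and -0.55 with troglitazone. A test of the drug effect in set 2 minus that in set 1 called 0 of 11739 probe sets (0%) with limma, and 391 had an unadjusted p under 0.05. Its smallest adjusted p was 0.704, with 1 vehicle array in set 2, so a difference between the sets was not detectable with these arrays.

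**Figure D4:**
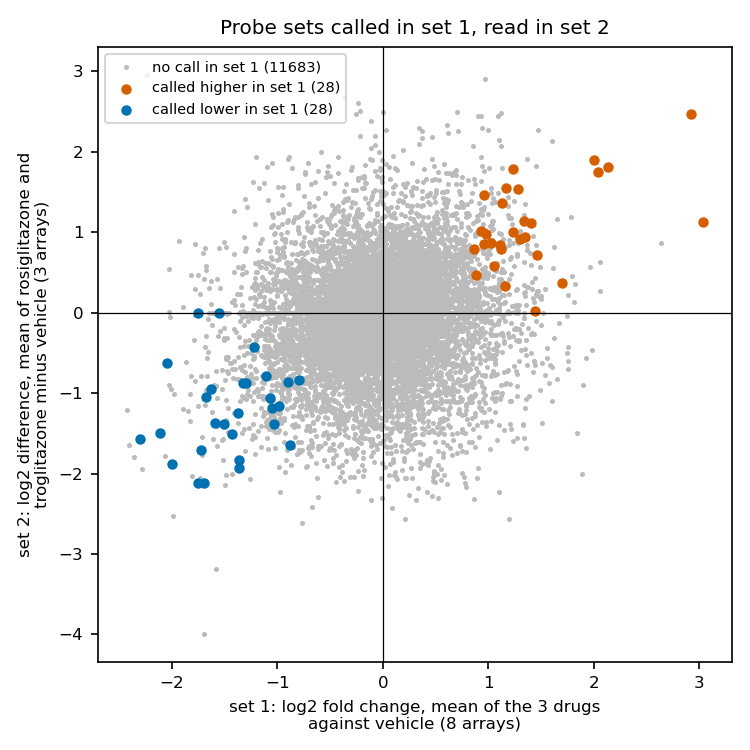
Probe sets in set 1 (x axis, log2 change of the mean of the 3 drugs, 8 arrays) and in set 2 (y axis, log2 difference of the mean of rosiglitazone and troglitazone minus vehicle, 3 arrays). The 28 called higher in set 1 (orange) lie above 0 in set 2, and of the 28 called lower (blue) 26 lie below 0 and 2 at 0; grey points are the 11683 without a call.

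Pioglitazone and troglitazone were the 1 pair at a matched dose, 20 µM for 24 h, and differ in the pyridine against the chroman end. Of 11739 probe sets, 3 were higher with troglitazone (0.0256%) and 1 was lower (0.00852%) in limma with p-values adjusted over all probe sets, and 745 had an unadjusted p under 0.05. Ero1a, the oxidase that makes disulfide bonds in the endoplasmic reticulum, was higher with troglitazone on both of its probe sets. The brighter one read 12009, 10401 and 8627 on the vehicle arrays, 11649 and 10508 with pioglitazone, 15319, 14046 and 14974 with rosiglitazone and 25194, 32555 and 27598 with troglitazone. The 3 troglitazone arrays were above both pioglitazone arrays, which lay within the vehicle range. The difference was 1.40 ± 0.16 (adjusted p = 0.00148, and 0.0542 without pioglitazone 1), and 2.31 ± 0.23 (adjusted p = 0.00059) on the other. Mt2, a metallothionein that binds zinc and copper, read 7663, 7439 and 9093 on the vehicle arrays, 8343 and 8172 with pioglitazone, 6544, 5835 and 9432 with rosiglitazone and 15802, 20830.3 and 23111 with troglitazone. The troglitazone arrays were above both pioglitazone arrays (1.12 ± 0.15, limma, adjusted p = 0.00851). Those pioglitazone arrays lay within the vehicle range of the pooled sets but above the vehicle arrays of set 1. Pck1 was lower with troglitazone by 3.88-fold (-1.96 ± 0.26, adjusted p = 0.00851). The Mt2 and Pck1 calls each held in 6 of the 11 fits without 1 array and were lost without pioglitazone 1, pioglitazone 2, rosiglitazone 1 or troglitazone 4, and also without troglitazone 2 for Mt2 or troglitazone 1 for Pck1. Without pioglitazone 2 and rosiglitazone 2 together none of the 4 was called, while 25 other probe sets were.

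For most shared changes the pair differed by less than the fit could resolve. Among the 251 probe sets called for the mean of the 3 drugs, the median size of the difference between the drugs was 0.26 log2 units and the median half-width of its 95% interval was 0.45. The interval held 0 for 180 of them and lay wholly within 1 log2 unit of 0 for 188. Over all 11739 probe sets the interval left out 0 for 745 (unadjusted p under 0.05 in limma), and its median half-width was 1.04. Intervals that left out 0 were thus a larger share of the 251 than of all probe sets, and those of the 251 were narrower. The interval was -0.48 to 0.56 for Pparg, -0.06 to 0.62 for Plin2 and -0.36 to 0.56 for Gsn. It was -0.32 to 0.29 for Anxa2, -0.67 to 0.01 for Acaa1b and -0.46 to 0.23 for Angptl4. For Chchd10 (0.07 to 1.01), Fasn (-0.88 to -0.18), Retn (-1.25 to -0.33) and Ndufa5 (-1.08 to -0.42) the interval left out 0, but the adjusted p-values of 0.692, 0.53, 0.36 and 0.257 did not pass. Ppp1r15a stood at 1.16 (0.61 to 1.71, adjusted p = 0.257) and Ddit3 at 0.90 (0.55 to 1.25, adjusted p = 0.146). A p-value that misses the threshold does not show that the drugs act alike.

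**Figure D5:**
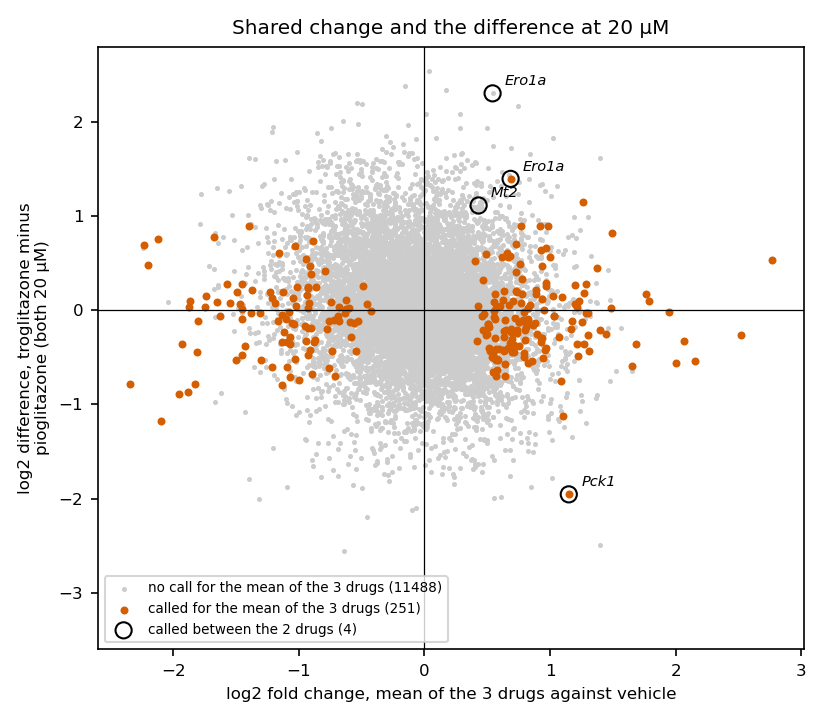
Each tested probe set by its log2 change in the mean of the 3 drugs (x axis) and its log2 difference between troglitazone and pioglitazone at 20 µM (y axis). Orange points are the 251 called for the mean, circles mark the 4 called between the drugs, and the largest difference among the orange points is Pck1 at -1.96.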

How the data were processed

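The data are 11 one-colour oligonucleotide arrays, each of RNA from 3T3-L1 cells. The authors deposited 1 table of signal intensities on a linear scale, scaled so that the mean after trimming 2% at each end was 500.289 to 500.433 on every array. How probes were summarised, and with which software, is not given in the sources used here. Values under 73.7, the 25th percentile of the pooled intensities, were raised to it and base 2 logarithms taken. After 66 control probe sets were left out, 11739 of 12422 exceeded the floor on 2 or more arrays and entered the tests, with 20.99% of their values at the floor. The annotation table gives 1 gene for 10833 of the 12422, several for 396 and none for 1193, and 10817 matched the RefSeq gene table. The files name no genome build, so coordinates are given only for promoters (RefSeq, GRCm38.p6). A gene is represented by its brightest tested probe set.

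limma 3.58.1 in R 4.3.3 fitted a term for each group and for the set (6 residual degrees of freedom), with a prior variance that follows the signal. Tests were two-sided with Benjamini-Hochberg adjustment over all probe sets tested in each comparison. The 95% interval of the 3-drug mean had a median half-width of 0.76 log2 units, which the number of arrays sets. The rule for named genes took the 15 largest rises and falls that passed and lay on 1 side on all 8 drug arrays, up to 4 called members of each list, every tested gene of a panel of the PPAR system and adipocytes, and up to 5 differences each way that passed between the drugs at 20 µM. The members, lists and rules were chosen with earlier results of these data known. Replicate numbers did not pair the samples: deviations of same-numbered samples correlated at -0.04 to 0.01 between groups. No pair of arrays was identical. Scripts were tested on simulated data with 100 changed probe sets of each size. The test of the 3-drug mean called 23% of changes of 1 log2 unit and 62% of changes of 2, with 3 false calls. Alternatives were other scaling, floors and filters, no set term, set 1 alone, no intensity trend, array weights, replicate blocks, an actin covariate, other weights of the drugs and leaving out arrays.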

Additional observations from a re-analysis of the deposited data

Results flagged for a closer look

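At the matched dose of 20 µM, 4 probe sets differed between troglitazone and pioglitazone after adjustment over all probe sets in limma, and each is named here for that reason. Ero1a was higher with troglitazone on both probe sets, by 2.31 (adjusted p = 0.00059) and 1.40 log2 units (adjusted p = 0.00148). Mt2 was higher by 1.12 (adjusted p = 0.00851). Pck1 stood at -1.96, troglitazone minus pioglitazone (adjusted p = 0.00851). All 4 values rest on 2 pioglitazone arrays from set 1.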

How the results depend on the processing

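For the mean of the 3 drugs, none of the 91 named genes that were called changed sign in the alternative runs that checked them. The signs of other calls were not checked in this way. The 251 calls for the mean of the 3 drugs became 84 without the set term, 56 in set 1 alone and 30 without the intensity trend (29 of them among the 251), and 115 to 236 when 1 array was left out. Other settings gave 180 to 294. With the replicate number as a block 247 were called, 237 of them among the 251, and the numbers do not pair the samples. For pioglitazone against troglitazone the 4 calls became 1 without the set term, 0 in set 1 alone (629 at an unadjusted p under 0.05) and 0 without the intensity trend (657 unadjusted). They became 25 without pioglitazone 2 and rosiglitazone 2, none of the original 4, and 1 to 7 with 1 array left out; with no filter on dim probe sets 4 were called, again none of the original. The replicate block gave the same 4. The test of set 2 against set 1 gave 0 to 0 calls in the 8 fits that left out 1 array and 9 with no filter; without vehicle 4, rosiglitazone 4 or troglitazone 4 it could not be fitted. Of the set 1 calls read in set 2, 96.4% kept their sign in set 2, 90.9% to 98.7% under the alternatives apart from 75% with no filter (27 of 36). In these moves the cause was not tested, except that set 1 alone and left-out arrays use fewer samples.

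Over 2663 checks of the 111 named genes, 2193 kept their side of the threshold, 463 lost the call and 7 gained it. Of 1050 list medians 32 moved by more than the spread over the drug arrays. Dim transcripts are limited by the floor, so falls in them are understated, and with 1 vehicle array in set 2 and 2 pioglitazone arrays small differences were not detectable.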

Other observations

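Genes outside the lists also moved in common; they were chosen here after their values were seen, and except where a count is given their calls held in each of the 11 fits that left out 1 array. Reep6, which shapes endoplasmic reticulum membranes, rose by 1.10 ± 0.12 log2 units (limma, adjusted p = 8.17e-05). Noct, nocturnin, a clock-controlled gene, rose by 1.07 ± 0.15, and Lonp1, the protease that clears damaged proteins from the mitochondrial matrix, by 0.97 ± 0.13. Ppa1, inorganic pyrophosphatase, and Pgm1, phosphoglucomutase of glycogen metabolism, rose by 0.78 ± 0.11 and 0.68 ± 0.10. All 8 drug arrays lay above the vehicle arrays of their set for each of these genes.

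Among those that fell, Cdo1, the cysteine dioxygenase that leads to taurine, stood at -1.43 ± 0.16 (adjusted p = 8.17e-05), with -1.27, -1.37 and -1.65 for pioglitazone, rosiglitazone and troglitazone. Pmp22, a membrane protein best known from myelin, read -1.31 ± 0.21, Mpp1, a membrane scaffold, -1.17 ± 0.17, and Ahnak, a giant scaffold protein, -1.04 ± 0.13. Apoc1, an apolipoprotein, read -0.88 ± 0.11, Aoc3, an amine oxidase of the adipocyte surface, -0.76 ± 0.10, and Cst3, cystatin C, -0.76 ± 0.12. Igf1, a growth factor, read -0.92 ± 0.20, Socs2, a suppressor of cytokine signals, -1.37 ± 0.30, and Fgfr2, a growth factor receptor, -1.03 ± 0.23, and their calls held in 4, 6 and 6 of the 11 fits. The caveolar pair went opposite ways, with Cav1 at -0.90 ± 0.18 (held in 9 of 11) and Cavin1 at 0.52 ± 0.12 (held in 2 of 11).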
